A study of Rattus norvegicus with 304 samples.

Results

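The liver response to the dioxin TCDD was taken at 96 h after a single oral dose, in rats of both strains of the study. The members are the groups given 100 µg/kg TCDD and the corn oil groups at 96 h, on both PCR platforms: 35 of the 304 samples of the series. They form 8 of its 72 groups. Male Han/Wistar and Long-Evans rats were dosed by gavage with TCDD in corn oil or with corn oil alone, and RNA came from whole liver. The labels call Long-Evans rats sensitive and Han/Wistar rats resistant to TCDD. All animals were 10 to 12 weeks old and were housed in groups, and no label gives a genetic modification. On the OpenArray, a plate of nanolitre PCR wells, Han/Wistar rats had 4 corn oil and 5 TCDD samples and Long-Evans rats had 4 and 4. For the 7900HT, which runs standard real-time PCR plates, the numbers were 5 and 5, and 4 and 4. Of the sample titles at 96 h, 17 occur on both platforms, so the 7900HT is a second measurement of the same animals. The exception is a Han/Wistar corn oil sample that was run on the 7900HT only.

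TCDD is an agonist of the aryl hydrocarbon receptor (AHR), a cytosolic receptor that moves to the nucleus when bound, pairs with its partner ARNT and binds a short DNA element near its target genes. Its best known targets in liver are enzymes that oxidise or conjugate foreign compounds, and genes that dampen AHR itself. Han/Wistar rats are known for a variant receptor and survive doses of TCDD that kill Long-Evans rats.

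The OpenArray gave 49 targets and the 7900HT gave 39, of which 38 are shared. Each target has 1 deposited value per group, taken as log2 relative to the strain's own corn oil group at 19 h. Because that reference lies at another time, every response below is TCDD at 96 h minus corn oil at 96 h, with the corn oil value beside it. There were 196 such values at 96 h on the OpenArray and 155 on the 7900HT, where Inmt in Long-Evans rats given TCDD is missing. No value per animal was used, so no test was possible, and how many molecules were amplified is unknown. A target was called when the groups differed by at least 2-fold, which is 1 log2 unit. All corn oil groups of a strain, the one at 96 h included, served as the spread (5 in Han/Wistar and 3 in Long-Evans rats). Over the OpenArray targets the median SD across those corn oil groups was 0.21 in Han/Wistar and 0.14 in Long-Evans rats, against 0.97 and 0.74 on the 7900HT. Of the hepatocyte markers listed, Mug1 was the one on the panel, and no marker of another liver cell type was, so the tissue could not be checked and a change in cell number cannot be told apart from a change in RNA per cell.

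At 96 h Ahrr, Cyp1b1, Aldh3a1, Cyp1a1 and Scn4b stood furthest above corn oil, by at least 7.34 log2 units in both strains, and Inmt stood furthest below it. On the OpenArray, 21 of 49 targets were at least 2-fold higher in Han/Wistar rats (42.9%) and 1 was lower (2.04%). In Long-Evans rats 23 were higher (46.9%) and 7 were lower (14.3%). All 21 targets called higher in Han/Wistar rats were also called higher in Long-Evans rats, and Neu1 and Pmm1 were added there. The 22 called values in Han/Wistar and the 30 in Long-Evans rats lay outside the range of the corn oil groups of their strain. Over all 49 targets, called or not, 39 in Han/Wistar and 44 in Long-Evans rats lay outside it, so this hardly separates called from other targets. The median difference over all 49 targets was 0.71 log2 units in Han/Wistar and 0.94 in Long-Evans rats, so the panel as a whole was shifted upward. With each strain centred on that median, Han/Wistar rats had 14 higher and 8 lower targets, and Long-Evans rats had 15 and 16. Centred on the mean, the numbers were 8 and 20, and 14 and 22.

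**Figure D1:**
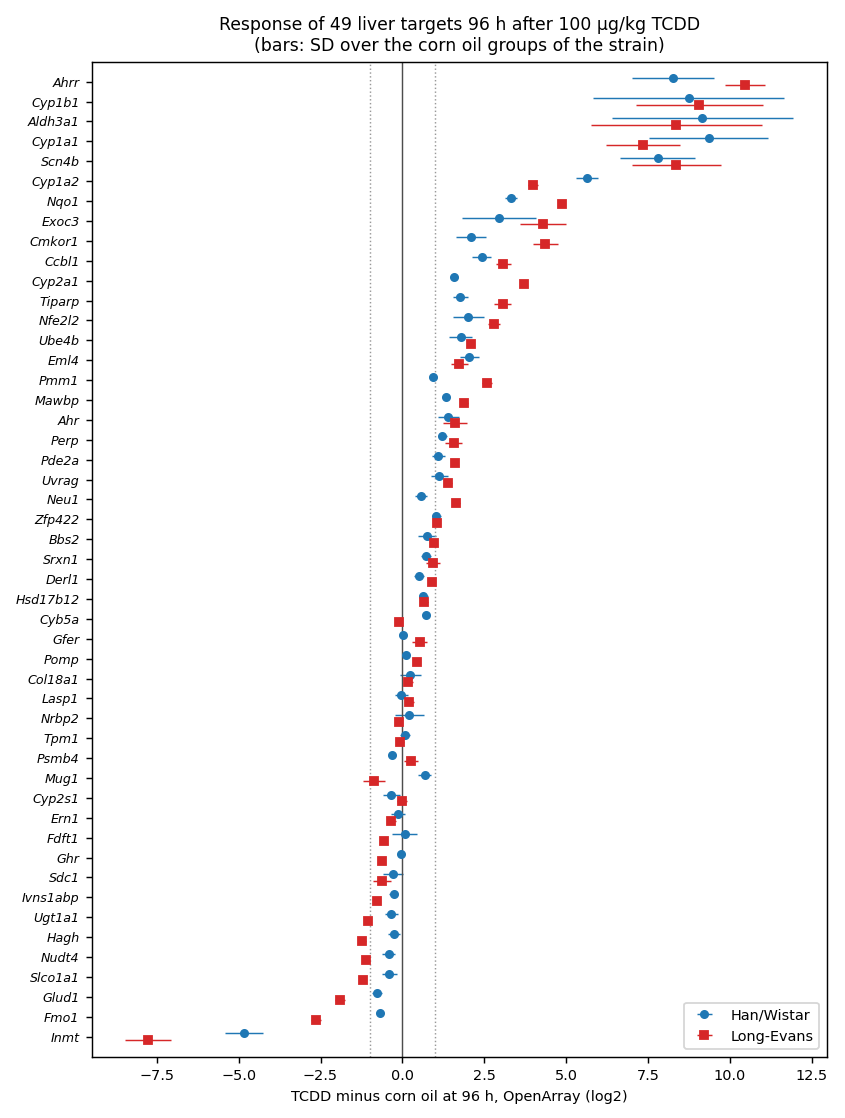
Difference between TCDD and corn oil at 96 h on the OpenArray (horizontal axis, log2) for each of 49 targets, in Han/Wistar (circles) and Long-Evans rats (squares); bars give the SD over the corn oil groups of the strain and dotted lines mark 2-fold. The 21 targets beyond the right line in both strains run from Zfp422 to Ahrr, with Pmm1 and Neu1 among them past the line in Long-Evans rats only, and Inmt alone lies beyond the left line in both strains.

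Of the 6 oxidative enzymes, 4 were called higher in both strains, beside 21 of 49 targets (42.9%) of the whole panel. Cyp1a1, a cytochrome P450 and the classical AHR target, stood at 10.06 under TCDD and 0.70 under corn oil in Han/Wistar rats in the authors' deposited table, a difference of 9.36 log2 units or 658-fold. In Long-Evans rats its values in the authors' deposited table were 9.50 and 2.16, a difference of 7.34 or 162-fold. The TCDD values of the strains were thus 0.56 apart and the corn oil values 1.46 apart, in opposite directions. Both are relative to the strain's own corn oil group at 19 h, so they do not compare levels. Cyp1a2, a related hepatic P450 that oxidises aromatic amines, stood at 5.10 and -0.53 in Han/Wistar rats, and at 4.32 and 0.32 in Long-Evans rats, in the authors' deposited table. Its differences were 5.64 and 3.99, larger in Han/Wistar rats like those of Cyp1a1. Cyp1b1, a P450 that oxidises oestrogens and polycyclic hydrocarbons, stood at 13.12 against 4.38 and at 11.86 against 2.79 in the authors' deposited table, with differences of 8.74 and 9.08. Aldh3a1, an aldehyde dehydrogenase, differed by 9.16 in Han/Wistar rats (TCDD 10.54, corn oil 1.38 in the authors' deposited table) and by 8.37 in Long-Evans rats (10.24 and 1.87).

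The remaining oxidative enzymes were not called in Han/Wistar rats. Fmo1, a flavin monooxygenase, was 0.69 lower there, short of 2-fold, and 2.63 lower in Long-Evans rats, a 6.21-fold difference. In the authors' deposited table its TCDD values were -0.64 and -2.36 and its corn oil values 0.05 and 0.27. Cyb5a, the cytochrome b5 electron carrier, had differences of 0.73 and -0.10. Over the 6 enzymes the median difference was 7.19 in Han/Wistar and 5.67 in Long-Evans rats, beside the panel medians of 0.71 and 0.94.

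Of the 3 enzymes of conjugation, reduction and methylation, 1 was higher in both strains and 1 was lower in both. Over the whole panel 21 of 49 targets (42.9%) were higher in both strains, and 1 (2.04%), Inmt itself, was lower in both. Nqo1, a quinone reductase, stood at 3.51 against 0.20 in Han/Wistar and at 4.79 against -0.07 in Long-Evans rats in the authors' deposited table. Its differences were 3.31 (9.91-fold) and 4.86 (29.1-fold). Inmt, a methyltransferase of indolamines, stood at -3.75 under TCDD and 1.10 under corn oil in Han/Wistar rats in the authors' deposited table, a difference of -4.84. In Long-Evans rats it stood at -7.83 and -0.06 in the authors' deposited table, a difference of -7.76 or 217-fold, and -7.83 was the lowest of the 1759 values of the OpenArray. Ugt1a1, the bilirubin glucuronosyltransferase, had a difference of -0.34 in Han/Wistar rats and was just past 2-fold lower in Long-Evans rats, at -1.05.

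On the OpenArray all 4 measured genes of the AHR pathway and its feedback were called higher in both strains. Centring on the mean turned the sign of Ahr in Han/Wistar rats, however, to -0.10. The share of the panel was 42.9%. Ahrr, the AHR repressor, which competes with AHR for ARNT, had the largest mean rise on the panel. It stood at 9.95 against 1.70 in Han/Wistar rats and at 11.54 against 1.07 in Long-Evans rats in the authors' deposited table, differences of 8.26 (306-fold) and 10.47 (1417-fold). Tiparp, an ADP-ribosyltransferase that represses AHR, differed by 1.77 in Han/Wistar rats (2.13 against 0.36 in the authors' deposited table) and by 3.07 in Long-Evans rats (3.52 against 0.45). Nfe2l2, which encodes the transcription factor of the antioxidant response, differed by 2.01 and 2.81. Ahr itself differed by 1.40 and 1.61, but in Han/Wistar rats its corn oil value at 96 h was -0.71 in the authors' deposited table and its TCDD value 0.69. The list's median was 1.89 in Han/Wistar and 2.94 in Long-Evans rats. On the 7900HT, which also held Arnt, 3 of 5 were higher and 1 was lower in Han/Wistar rats. In Long-Evans rats 4 of 5 were higher, beside 48.7% and 52.6% of all 7900HT targets called higher in the strains. All the called Han/Wistar genes (Ahr, Nfe2l2, Tiparp and Ahrr) had 7900HT TCDD values within the range of the corn oil groups. Among the called genes in Long-Evans rats this held for Ahrr alone. Arnt was called in neither strain, with differences of 0.61 and -0.88.

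Upstream sequences were set beside these values for the largest mean rise (Ahrr) and for the largest mean fall, which is also the widest strain gap (Inmt). Cyp1b1 and Cmkor1, a chemokine receptor described below, were added after their values had been seen, as a P450 and as a target outside the xenobiotic enzymes. Capitals mark GCGTG, the core of the AHR-ARNT element, or its reverse complement. The longer form TNGCGTG contains the core, and both were searched on both strands. Each sequence holds the 250 bases before the gene's start in RefSeq GRCr8, a reference from another rat strain, 5' to 3' along the gene.
Ahrr, chr1:30821969-30822218, plus strand: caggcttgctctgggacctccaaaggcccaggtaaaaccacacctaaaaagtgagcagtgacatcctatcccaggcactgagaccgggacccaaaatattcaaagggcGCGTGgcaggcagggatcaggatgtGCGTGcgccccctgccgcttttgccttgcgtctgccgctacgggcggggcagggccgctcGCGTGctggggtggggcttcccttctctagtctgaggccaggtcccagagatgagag
Cyp1b1, chr6:21094315-21094564, plus strand: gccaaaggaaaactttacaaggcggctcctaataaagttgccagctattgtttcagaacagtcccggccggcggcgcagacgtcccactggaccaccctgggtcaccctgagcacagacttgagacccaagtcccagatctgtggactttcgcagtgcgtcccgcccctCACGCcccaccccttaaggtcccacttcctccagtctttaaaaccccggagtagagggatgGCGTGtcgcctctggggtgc
Cmkor1 (now Ackr3), chr9:98247104-98247353, plus strand: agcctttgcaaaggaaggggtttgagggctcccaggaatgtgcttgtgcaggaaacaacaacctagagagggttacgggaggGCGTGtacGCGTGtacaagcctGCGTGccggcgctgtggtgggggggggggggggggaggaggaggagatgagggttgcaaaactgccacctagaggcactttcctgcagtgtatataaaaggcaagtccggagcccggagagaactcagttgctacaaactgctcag
Inmt, chr4:85652756-85653005, minus strand: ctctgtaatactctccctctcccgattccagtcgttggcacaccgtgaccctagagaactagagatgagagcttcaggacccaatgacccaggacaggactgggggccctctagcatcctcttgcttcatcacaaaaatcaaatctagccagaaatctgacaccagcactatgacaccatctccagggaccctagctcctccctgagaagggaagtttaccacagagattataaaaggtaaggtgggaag

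The Ahrr window held 3 matches to GCGTG, at 142, 117 and 57 bases before the start, and the last of them lay within a TNGCGTG. That of Cyp1b1 held 2, at 81 bases on the reverse strand and at 20 bases within a TNGCGTG, and that of Cmkor1 held 3 between 168 and 142 bases. The Inmt window held none, which says only that these letters are not in this window. Scn4b and Cyp1a2, also called higher in both strains, had a promoter entry but no core match, and their windows are not printed. The printed sequences therefore do not stand for all targets with a large rise. Of 33469 RefSeq promoters 25.9% held the core in the same 250 bases and 4.09% held TNGCGTG. Of the 50 target names on the platforms 43 had a promoter entry, and 19 of them (44.2%) held the core and 4 held TNGCGTG. Among targets called higher in both strains 9 of 19 (47.4%) held the core, against 6 of 14 (42.9%) called in neither strain and 2 of 7 called lower in either strain. These shares rest on few promoters and were not tested.

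Of the 5 targets of amino acid, sugar and sterol metabolism, 2 were called higher in both strains, near the 42.9% of the panel. Ccbl1, a kynurenine aminotransferase and cysteine conjugate lyase now called Kyat1, stood at 1.96 against -0.46 and at 3.00 against -0.08 in the authors' deposited table, with differences of 2.42 and 3.08. Mawbp, now called Pbld1, differed by 1.32 and 1.87, and its sign in Han/Wistar rats turned to -0.18 with centring on the mean. Pmm1, a phosphomannomutase, was just short of 2-fold in Han/Wistar rats at 0.94 and differed by 2.58 in Long-Evans rats (2.26 against -0.32 in the authors' deposited table). Glud1, the mitochondrial glutamate dehydrogenase, went the other way, at -0.78 in Han/Wistar rats, which was not called, and -1.90 in Long-Evans rats, which was. Fdft1, squalene synthase, had differences of 0.07 and -0.58.

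The receptor and channel on the panel were both called higher in both strains, beside 42.9% of the panel. Scn4b, a sodium channel subunit, stood at 9.62 against 1.82 in Han/Wistar and at 10.43 against 2.06 in Long-Evans rats in the authors' deposited table, differences of 7.80 (222-fold) and 8.37 (331-fold). These differences were close to those of Cyp1b1. Cmkor1, an atypical chemokine receptor now called Ackr3, stood at 1.76 against -0.34 in Han/Wistar rats and at 5.13 against 0.76 in Long-Evans rats in the authors' deposited table. Its differences were 2.10 (4.28-fold) and 4.36 (20.6-fold). Relative to each strain's own corn oil group at 19 h, the corn oil values were also 1.11 apart between the strains.

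Of 8 targets of cytoskeleton, matrix and trafficking, 3 were called higher in both strains, near the 42.9% of the panel, and none lower. Exoc3, a subunit of the exocyst that tethers secretory vesicles, stood at 2.54 against -0.41 and at 3.32 against -0.97 in the authors' deposited table, with differences of 2.95 and 4.29. In the RefSeq table for GRCr8, Exoc3 and Ahrr lie with 1 protein-coding gene between them, and Cyp1a1 and Cyp1a2 are direct neighbours. Eml4, a microtubule-binding protein, differed by 2.04 and 1.74. Uvrag, a protein of autophagy and endosome traffic, differed by 1.12 and 1.39, and both signs turned with centring on the mean, to -0.37 and -0.14. The other 5 (Bbs2, Col18a1, Lasp1, Sdc1 and Tpm1) ranged from -0.28 to 0.74 in Han/Wistar and from -0.62 to 0.96 in Long-Evans rats.

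Of the 5 targets of protein quality control, Ube4b, a ubiquitin chain elongation factor, was called in both strains, with differences of 1.78 and 2.09. This was a smaller share than the 42.9% of the panel called higher in both. The proteasome subunit Psmb4, the proteasome assembly factor Pomp, the stress sensor Ern1 and Derl1, a protein of endoplasmic reticulum degradation, were not called in either strain, and ranged from -0.30 to 0.50 and from -0.34 to 0.90. Mug1, a plasma protease inhibitor made by hepatocytes, was not called in either strain. Its differences had opposite signs, 0.69 in Han/Wistar rats (0.37 against -0.32 in the authors' deposited table) and -0.87 in Long-Evans rats (-0.35 against 0.52).

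Of the 15 other targets, 4 were called higher in both strains, a smaller share than the 42.9% of the panel. Cyp2a1, a steroid hydroxylase, was the largest of them in Long-Evans rats, at 3.71 (3.77 against 0.06 in the authors' deposited table), beside 1.59 in Han/Wistar rats (1.38 against -0.21). Perp, a desmosomal membrane protein, differed by 1.21 and 1.56, Pde2a, a cyclic nucleotide phosphodiesterase, by 1.10 and 1.62, and the zinc finger gene Zfp422 by 1.04 and 1.05. The signs of these 3 in Han/Wistar rats turned with centring on the mean, to -0.28, -0.40 and -0.46, and that of Zfp422 in Long-Evans rats to -0.48. Neu1, the lysosomal sialidase, differed by 0.57 and by 1.64, the second a called value. In Long-Evans rats 3 of the 15 were called lower, beside 7 of 49 targets (14.3%) of the whole panel. The 3 were Hagh (-1.22), a hydrolase of the glyoxalase system, Slco1a1 (-1.19), an organic anion uptake transporter, and Nudt4 (-1.12), an inositol pyrophosphate phosphatase. The same targets stood at -0.25, -0.41 and -0.42 in Han/Wistar rats, lower but not called. Ghr, the growth hormone receptor, had differences of -0.05 and -0.61.

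The threshold passed through closely spaced values. The called values nearest to it were Zfp422 at 1.04, Pde2a at 1.10 and Uvrag at 1.12 in Han/Wistar rats, and Ugt1a1 at -1.05, Zfp422 at 1.05 and Nudt4 at -1.12 in Long-Evans rats. Just short of it lay Pmm1 at 0.94, Glud1 at -0.78 and Bbs2 at 0.74 in Han/Wistar rats. In Long-Evans rats Bbs2 at 0.96, Srxn1, the sulfiredoxin gene, at 0.94 and Derl1 at 0.90 fell just short.

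The corn oil groups at 96 h were not at the level of 19 h for every target. In each strain 5 of 49 OpenArray targets (10.2%) had a corn oil value of at least 1 log2 unit, all above 0. For Han/Wistar rats these were, in the authors' deposited table, Cyp1b1 at 4.38, Scn4b at 1.82, Ahrr at 1.70, Aldh3a1 at 1.38 and Inmt at 1.10. In Long-Evans rats Cyp1b1 (2.79), Cyp1a1 (2.16), Scn4b (2.06), Aldh3a1 (1.87) and Ahrr (1.07) held that place in the authors' deposited table. Of these, 4 of 5 in Han/Wistar rats and 5 of 5 in Long-Evans rats were also among the 5 largest rises from corn oil to TCDD at 96 h. The SD over the corn oil groups was 2.93 for Cyp1b1 and 2.77 for Aldh3a1 in Han/Wistar rats, and 1.94 and 2.60 in Long-Evans rats. Against the 19 h reference in place of corn oil at 96 h, the called targets numbered 18 in Han/Wistar and 33 in Long-Evans rats.

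The comparison of strains asks which targets respond differently in the resistant and the sensitive rat. The strains share no animals or corn oil groups at 96 h. The size of the difference was larger in Long-Evans rats for 40 of 49 OpenArray targets, and for 17 of the 21 called higher in both strains. On the 7900HT it was larger there for 22 of 38 targets, and for 8 of the 17 called higher in both strains. On the OpenArray the sign was the same for 42 targets. The strain gap, Long-Evans minus Han/Wistar of the differences, was at least 1 log2 unit for 8 targets upward (16.3%) and for 6 downward (12.2%), or for 7 and 10 with each strain centred on its median.

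The widest gaps belonged to targets of different roles. Each gap is the gap of the TCDD values minus that of the corn oil values, so a corn oil gap of the same sign narrows it. Inmt had a gap of -2.92, from a TCDD gap of -4.08 and a corn oil gap of -1.16. Cmkor1 had a gap of 2.27, with TCDD values 3.37 apart and corn oil values 1.11 apart. For Ahrr the gap was 2.21 (TCDD 1.58, corn oil -0.63) and for Cyp2a1 2.12 (2.39 and 0.27). Cyp1a1 had a gap of -2.02, and there the corn oil values, 1.46 apart, made the larger part. The same held for Cyp1a2, with a gap of -1.64, and for Mug1, with one of -1.56, while for the other 11 of the 14 targets the TCDD values were further apart than the corn oil values.

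The other gaps past 2-fold were Fmo1 (-1.95), Pmm1 (1.64), Nqo1 (1.55), Exoc3 (1.35), Tiparp (1.30), Glud1 (-1.12) and Neu1 (1.07). All of these were larger responses in Long-Evans rats, upward or downward. Against corn oil at 19 h the gaps of Exoc3 (0.79), Glud1 (-0.85), Cyp1a1 (-0.56), Cyp1a2 (-0.79) and Mug1 (-0.72) fell short of 2-fold, and against the mean of the corn oil groups those of Exoc3 (0.32) and Cyp1a1 (-0.66) did. Of the 14 gaps, 13 had the same sign at 240 h and 11 at 19 h. How many of the remaining targets kept their sign was not counted. At 19 h only the gaps of Ahrr (2.91) and Cmkor1 (2.21) passed 2-fold. Several of the same sign were small there, such as Neu1 (0.05), Tiparp (0.09), Pmm1 (0.11) and Fmo1 (-0.12). The gaps of Inmt, Mug1 and Nqo1 had the opposite sign at 19 h. That of Inmt was 0.52 at 19 h and -2.07 at 240 h, that of Mug1 was 0.24 and -2.56, and that of Nqo1 was -0.30 and 1.08. Cyp1a1 was the exception at the later time, with 0.21.

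**Figure D2:**
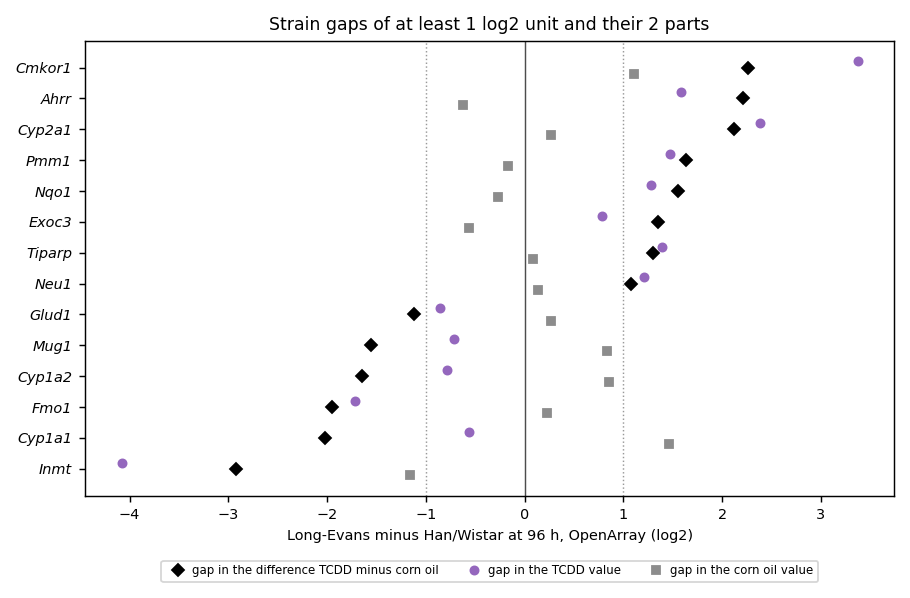
Long-Evans minus Han/Wistar at 96 h on the OpenArray (horizontal axis, log2) for the 14 targets whose responses differed by at least 1 log2 unit between the strains; diamonds show the gap in the difference TCDD minus corn oil, circles the gap in the TCDD value and squares the gap in the corn oil value. For Cyp1a1, Cyp1a2 and Mug1 the square lies further from 0 than the circle, and for the other 11 the circle does. TCDD and corn oil values are relative to each strain's own corn oil group at 19 h.

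The time course places 96 h between the 19 h and 240 h groups. Each time was set against corn oil of its own time, so the differences at the times share no groups, while the steps to and from 96 h share the groups at 96 h. For Han/Wistar rats, 15 of the 22 targets called at 96 h were called in the same direction at 19 h, and in Long-Evans rats 19 of 30. Of all 49 targets, 15 were called higher and 3 lower at 19 h in Han/Wistar rats, and 18 and 4 in Long-Evans rats. The differences at 96 h were at least 1 log2 unit above those at 19 h for 9 targets in each strain (18.4%). They were at least that far below for 3 in Han/Wistar (6.12%) and 4 in Long-Evans rats (8.16%). With each time centred on its median these splits became 4 above and 5 below, and 6 and 5. Against corn oil at 19 h for both times they were 6 above and 0 below, and 10 and 2.

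Targets called at 96 h but not at 19 h were Ahr, Pde2a, Perp, Uvrag and Zfp422 in both strains. Cmkor1 and Eml4 joined them in Han/Wistar rats, and Fmo1, Hagh, Neu1, Nudt4, Slco1a1 and Ugt1a1 in Long-Evans rats. In the other direction Nrbp2, a pseudokinase gene, was called at 19 h and not at 96 h in both strains, along with Pmm1 and Ugt1a1 in Han/Wistar and Hsd17b12, a ketoreductase of fatty acid elongation, and Sdc1, a cell surface proteoglycan, in Long-Evans rats.

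The widest steps from 19 h to 96 h in Han/Wistar rats were upward for Ahrr (4.95 to 8.26), Scn4b (5.03 to 7.80), Cmkor1 (-0.53 to 2.10) and Mug1 (-0.97 to 0.69), and downward for Cyp1b1 (10.62 to 8.74). The TCDD value of Cyp1b1 itself went up, from 10.62 to 13.12 in the authors' deposited table, while its corn oil value went from 0 to 4.38. In Long-Evans rats Inmt went from -3.95 to -7.76, Cmkor1 from 1.69 to 4.36, Ahrr from 7.86 to 10.47, Exoc3 from 1.77 to 4.29 and Cyp2a1 from 1.48 to 3.71. Inmt in Han/Wistar rats stood at -4.47 and -4.84, so on the OpenArray its strain gap opened between 19 h and 96 h. On the other PCR platform that gap was already -1.04 at 19 h (Long-Evans -3.92, Han/Wistar -2.88). Its gap at 96 h could not be read there, because the Long-Evans TCDD value is missing.

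From 96 h to 240 h the corn oil values moved as well as the TCDD values. In Long-Evans rats 5 targets were at least 1 log2 unit higher at 96 h than at 240 h (10.2%) and 9 were lower (18.4%). For Han/Wistar rats the numbers were 5 (10.2%) and 2 (4.08%), or 0 and 2 with each time centred on its median. Against corn oil at 19 h for both times, Long-Evans rats had 5 higher and 3 lower and Han/Wistar rats 3 and 3. Called targets at 96 h were called in the same direction at 240 h for 18 of 22 in Han/Wistar and for 27 of 30 in Long-Evans rats. Of all 49 targets, 18 were called higher and 4 lower at 240 h in Han/Wistar rats, and 25 and 8 in Long-Evans rats.

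In Long-Evans rats Aldh3a1 went from 8.37 to 14.10, Cyp1b1 from 9.08 to 13.22, Scn4b from 8.37 to 11.45 and Cmkor1 from 4.36 to 6.38, while Fmo1 went from -2.63 to -5.53. For Aldh3a1, Cyp1b1 and Scn4b most of the step lay in corn oil. In the authors' deposited table Aldh3a1 went from 1.87 to -3.26 under corn oil and from 10.24 to 10.83 under TCDD. Cyp1b1 went from 2.79 to -0.95 and from 11.86 to 12.28, and Scn4b from 2.06 to -0.52 and from 10.43 to 10.93, in the authors' deposited table. For Cmkor1 (5.13 to 6.73) and Fmo1 (-2.36 to -5.28) most of the step lay in the TCDD values of the authors' deposited table. For Han/Wistar rats the widest steps were Tiparp from 1.77 to 3.03, Nqo1 from 3.31 to 4.55, Exoc3 from 2.95 to 1.79, Cyp1a2 from 5.64 to 4.51 and Fmo1 from -0.69 to -1.78. Bbs2, Derl1, Fdft1, Ghr, Mug1 and Srxn1 were called in Long-Evans rats at 240 h and not at 96 h. In Han/Wistar rats this held for Fmo1, Glud1, Ivns1abp and Pmm1. Nudt4 and Ugt1a1 were lower at 96 h and near corn oil again at 240 h in Long-Evans rats, at 0.03 and 0.33.

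**Figure D3:**
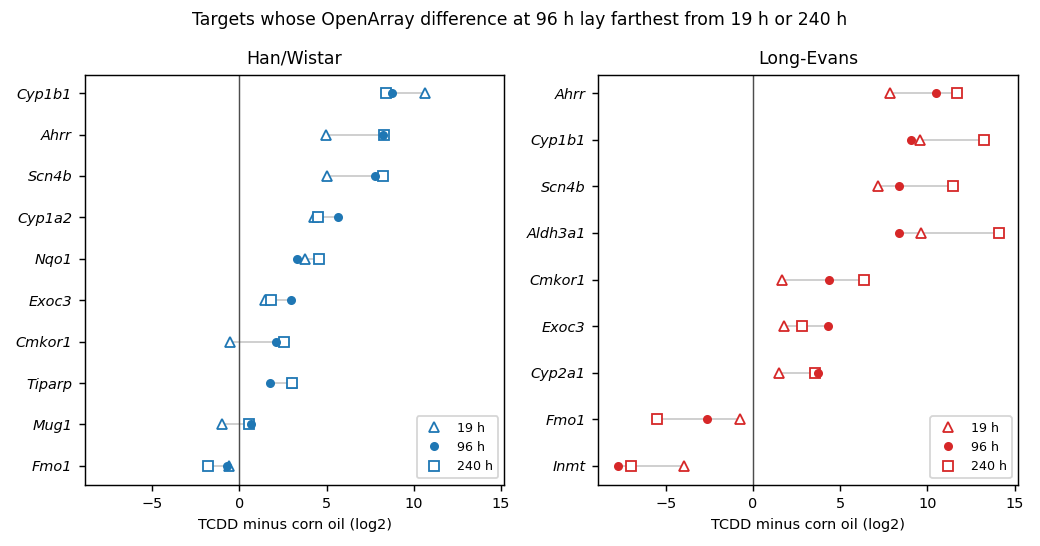
Difference between TCDD and time-matched corn oil, OpenArray (horizontal axis, log2), at 19 h (triangles), 96 h (filled circles) and 240 h (squares), for the targets with the widest steps to or from 96 h in Han/Wistar (left) and Long-Evans rats (right). Aldh3a1 in Long-Evans rats shows the widest step, from 8.37 at 96 h to 14.10 at 240 h, with corn oil going from 1.87 to -3.26 and TCDD from 10.24 to 10.83.

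The full course of the deposited values is relative to corn oil at 19 h. No corn oil group was taken at 10 h, so the TCDD values at that time have no control of their own time. At 10 h Inmt stood at -1.68 in Han/Wistar rats and -1.71 in Long-Evans rats in the authors' deposited table, and at 19 h it stood at -4.47 and -3.95. Fmo1 in the authors' deposited table went from -0.62 (19 h) to -0.64 (96 h) and -1.96 (240 h) in Han/Wistar rats. In Long-Evans rats it went from -0.74 to -2.36 and -5.28 in the authors' deposited table. Cyp2a1 in Han/Wistar rats reached 1.98 at 240 h in the authors' deposited table, below the 3.77 of Long-Evans rats at 96 h. Ahr in Long-Evans rats went from 0.56 (19 h) to 2.03 (96 h) and 2.20 (240 h) in the authors' deposited table.

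**Figure D4:**
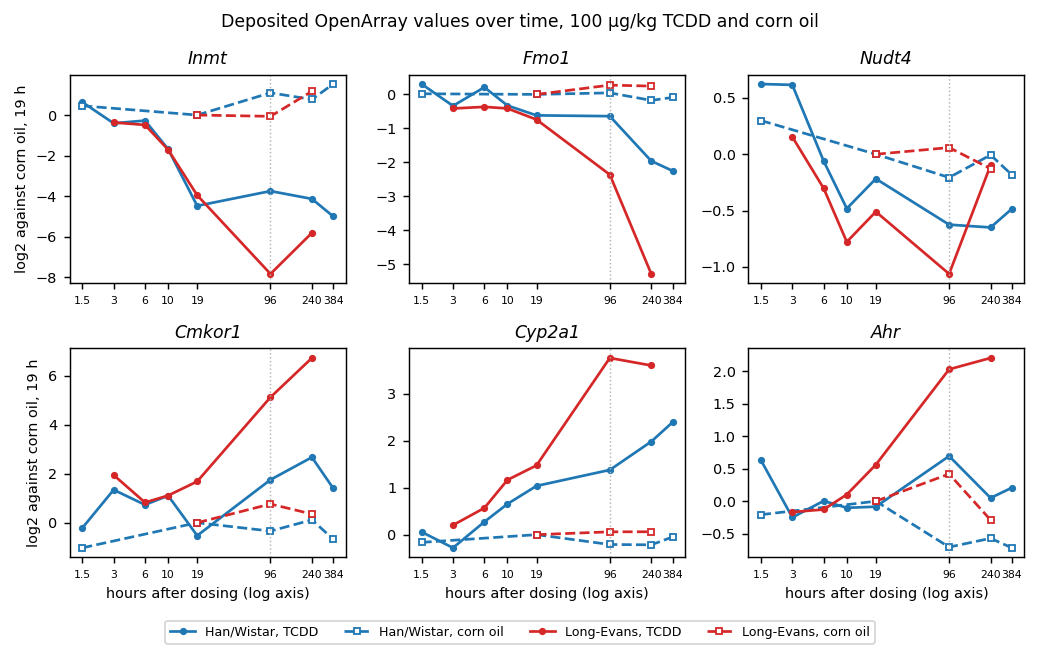
Deposited OpenArray values (vertical axis, log2 against corn oil at 19 h of the strain) over hours after dosing (log axis) for 6 targets, under TCDD (solid lines) and corn oil (dashed lines), in Han/Wistar (blue) and Long-Evans rats (red); the dotted line marks 96 h and each panel has its own vertical scale. Inmt shows its lowest value, -7.83, in Long-Evans rats at 96 h, while Fmo1 goes on to -5.28 at 240 h.

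The 7900HT gave the same comparison with a wider spread. In Han/Wistar rats 19 of 39 targets were called higher (48.7%) and 14 lower (35.9%), and in Long-Evans rats 20 of 38 were higher (52.6%) and 10 lower (26.3%). With each strain centred on its median the split was 15 higher and 17 lower, and 15 and 15. Corn oil at 96 h was itself at least 2-fold from corn oil at 19 h for 13 of 39 targets in each strain (33.3% and 33.3%). Of the called targets 18 of 33 in Han/Wistar and 23 of 30 in Long-Evans rats lay outside the range of the corn oil groups. Over all targets these numbers were 18 of 39 and 27 of 38. Strain gaps of at least 1 log2 unit numbered 9 upward (23.7%) and 9 downward (23.7%) of 38, or 8 and 16 with centring on the median and 7 and 16 on the mean.

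Among shared targets called on the OpenArray, 14 of 18 in Han/Wistar rats had the same sign on the 7900HT (77.8%, exact 95% binomial interval 52.4% to 93.6%), or 14 of 17 without Ahrr. In Long-Evans rats this held for 20 of 23 (87.0%, 66.4% to 97.2%). The intervals treat the targets as independent, which genes of the same animals are not. Called or not, 27 of the 38 shared targets matched in sign for Han/Wistar rats (71.1%). For Long-Evans rats 31 of 37 did (83.8%). The called targets thus matched only slightly more often than the full shared set. Over all shared targets the 7900HT value was above 0 for 55.3% in Han/Wistar and 64.9% in Long-Evans rats. Of the targets called lower on the OpenArray, 1 of 1 and 4 of 4 were also below 0 on the 7900HT.

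Cyp1a1, Cyp1a2 and Nqo1 were called higher on both platforms in both strains. On the 7900HT the differences in Han/Wistar and Long-Evans rats were 12.05 and 7.37 for Cyp1a1, 6.47 and 3.41 for Cyp1a2, and 4.12 and 4.09 for Nqo1. The Nqo1 TCDD value in Han/Wistar rats, 1.74 in the authors' deposited table, lay within the range of the corn oil groups, -2.79 to 2.62. Aldh3a1 differed by 10.39 and 8.02, but the SD over its corn oil groups was 10.83 and 4.52. Cyp1b1 differed by 3.76 in Han/Wistar rats, less than its 8.74 on the OpenArray, and by 7.16 in Long-Evans rats. Inmt in Han/Wistar rats stood at -3.10, beside -4.84 on the OpenArray.

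Opposite signs with both values past 2-fold occurred for Ahrr and Uvrag in Han/Wistar rats and for Pde2a and Uvrag in Long-Evans rats. Ahrr in Han/Wistar rats differed by -16.77 on the 7900HT and by 8.26 on the OpenArray. Its 7900HT values in the authors' deposited table were 7.02 under corn oil and -9.74 under TCDD, and the SD over its corn oil groups there was 8.25. Uvrag differed by -1.33 and -1.10 on the 7900HT and Pde2a in Long-Evans rats by -1.05. Across the 38 shared targets Pearson's r between the platforms was 0.34 in Han/Wistar rats, or 0.83 without Ahrr (Spearman's rho 0.63 and 0.74). In Long-Evans rats it was 0.74 over 37 targets, with a rho of 0.79. These correlations run across genes of the same animals and are descriptions only.

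Of the 14 OpenArray strain gaps past 2-fold, 11 could be read on the 7900HT and 8 had the same sign there. Those of Cyp1a1 (-4.68), Cyp1a2 (-3.06), Cmkor1 (1.66), Pmm1 (1.31) and Glud1 (-1.04) were again past 2-fold, and that of Ahrr was 20.44, from the Han/Wistar value above. Neu1, Nqo1 and Tiparp had gaps of the opposite sign, at -0.24, -0.03 and -0.71.

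**Figure D5:**
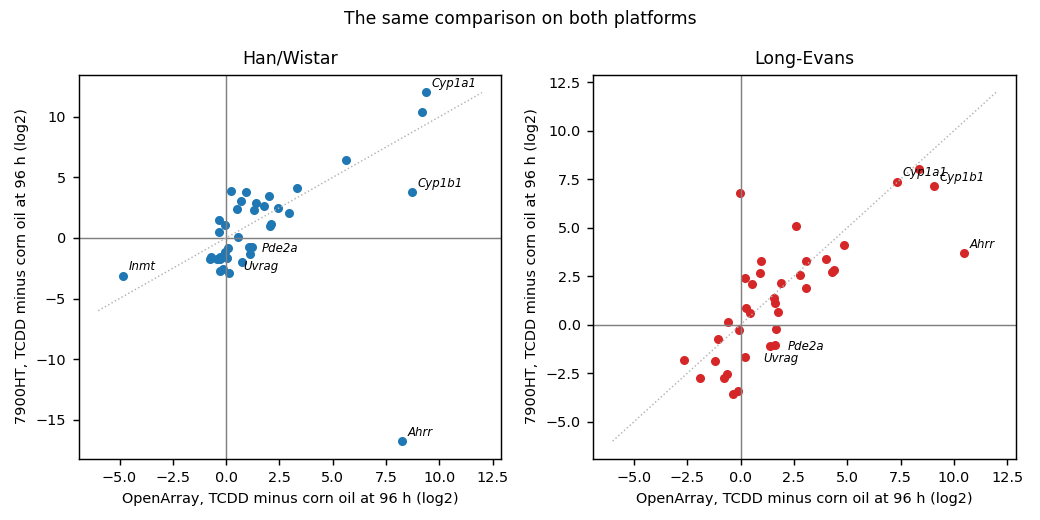
Difference between TCDD and corn oil at 96 h on the 7900HT (vertical axis, log2) against the OpenArray (horizontal axis, log2) for shared targets, 38 in Han/Wistar (left) and 37 in Long-Evans rats (right); the dotted line marks equal values. Ahrr in Han/Wistar rats lies at 8.26 and -16.77, far from the other points, and Uvrag lies below 0 on the 7900HT in both strains.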

How the data were processed

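Liver total RNA was reverse transcribed and measured by real-time PCR on the OpenArray and the 7900HT, per the labels' protocols. The authors' deposited fold change tables hold 1 value per gene, strain, time and dose. As deposited it was taken to be a log2 ratio that the authors had computed relative to the strain's corn oil group at 19 h, where every value is 0; no header states the log base. The submitters' processing notes name R 2.12.2. Which genes served as reference, how animals were averaged and how failed wells were handled is not given in the sources used here. The tables of raw cycle values have 304 columns whose animal codes match no sample label, and none of their values was used.

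Groups were taken from the labels. TCDD minus corn oil at 96 h was computed for every target, and a difference of at least 1 log2 unit was called. With 1 value per group no test could be run, and the precision can be judged only from the spread over all corn oil groups of a strain, the one at 96 h included. The limma fit planned for single animals was therefore not run. Targets were named by role lists, by a 2-fold difference in either strain and by the 5 widest gaps of each comparison. The members and lists were chosen with earlier results of these data known. Alternatives were other references (corn oil at 19 h, the mean of the corn oil groups), centring on the mean or median over targets or within 7900HT gene sets with the same number of rows, a 4-fold threshold, a call that also lies outside the corn oil range, and the platform match over all shared targets, over 4-fold targets and without Ahrr; the last was chosen after seeing the data. Of 50 target names, 47 matched a current RefSeq GRCr8 symbol and 3 an older one. Promoter sequences are from RefSeq GRCr8; the build behind the assays is not given in the sources used here. The calculation was tested on simulated data. The tools were matplotlib 3.10.9, scipy 1.17.1, pandas 2.3.3 and numpy 2.4.6 under Python 3.11.15.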

Additional observations from a re-analysis of the deposited data

Results flagged for a closer look

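A total of 7 targets had differences from corn oil at 96 h with opposite signs in the strains, each at least 0.5 log2 units from 0. The strain gap (Long-Evans minus Han/Wistar) was -1.56 for Mug1 on the OpenArray. On the 7900HT it was 20.44 for Ahrr, -1.49 for Arnt, 3.72 for Gfer, 2.18 for Perp, 3.50 for Pomp and 2.56 for Psmb4. With 1 deposited value per group, whether the strains differ was not tested. On the OpenArray Ahrr and Perp were higher than corn oil in both strains, and Gfer and Pomp were above 0 in both, while Psmb4 had opposite signs there too, with -0.30 for Han/Wistar rats and 0.26 for Long-Evans rats.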

How the results depend on the processing

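No paired analysis was possible because the deposited tables hold 1 value per group and no test was run; leaving out single animals was not run for the same reason. The numbers of animals and molecules behind each value limit every count, and their spread is unknown. A 4-fold threshold left 13 Han/Wistar and 17 Long-Evans calls on the OpenArray (22 and 30 at 2-fold), 5 strain gaps (14), 20 targets on the 7900HT in Han/Wistar rats (33) and 10 strain gaps there (18). It left 3 and 6 differences between 96 h and 19 h (12 and 13), 0 and 5 between 96 h and 240 h (7 and 14), and 1 and 3 corn oil values (5 and 5), while the platform match in Long-Evans rats became 100% (87.0%). Against corn oil at 19 h, differences between 96 h and 19 h in Han/Wistar rats became 6 and those between 96 h and 240 h in Long-Evans rats 8; centring on the median left 2 between 96 h and 240 h in Han/Wistar rats; on the 7900HT 18 Han/Wistar calls lay outside the corn oil range. The causes were not tested.

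Of the single-target results, 29 recomputed values turned in sign. On the OpenArray, centring on the mean gave -0.10 for Ahr, -0.18 for Mawbp, -0.40 for Pde2a, -0.28 for Perp, -0.37 for Uvrag and -0.46 for Zfp422 in Han/Wistar rats, and -0.14 for Uvrag and -0.48 for Zfp422 in Long-Evans rats. The others were on the 7900HT. Against corn oil at 19 h, Ahr became -0.62 and Cyp2s1 -0.065 in Han/Wistar rats, Ahrr -0.14 and Uvrag 0.00018 in Long-Evans rats, and the strain gaps of Ahr 1.46, Cyp1b1 -1.12 and Ugt1a1 0.35. Against the mean of the corn oil groups, Tiparp became -0.069 in Han/Wistar rats, Pde2a 0.026 and Uvrag 0.19 in Long-Evans rats, and the strain gaps of Ahr 0.43, Aldh3a1 0.94 and Ugt1a1 0.32. Ahr in Long-Evans rats became -0.14 on the median and -0.25 on the mean. Within sets of genes with the same number of rows, Cyp2s1 became -1.30 and Tiparp -0.14 in Han/Wistar rats, and Ahr -2.31, Gfer -1.32, Nfe2l2 -0.85 and Tiparp -1.50 in Long-Evans rats. The causes were not tested.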

Other observations

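The raw 7900HT table lists 4 rows per gene for 14 targets and 2 for 25. The 7900HT minus OpenArray difference at 96 h had a median of 0.86 over 13 shared targets with 4 rows and of -0.94 over 25 with 2 rows in Han/Wistar rats. In Long-Evans rats the medians were -0.43 over 12 and -0.69 over 25. Cyp2s1, a cytochrome P450, differed from corn oil by 6.81 log2 units in Long-Evans rats on the 7900HT and by -0.01 on the OpenArray. In Han/Wistar rats the values were 1.47 and -0.34. Col18a1, a collagen chain, differed by 3.89 and 2.39 on the 7900HT in Han/Wistar and Long-Evans rats, beside 0.25 and 0.18 on the OpenArray. Srxn1 differed by 3.06 and 3.27, beside 0.71 and 0.94.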
